A study of Mus musculus with 9 samples.

Results

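The lysosomal cathepsins and legumain are 10 genes, taken by symbol from the 50559 genes listed for each library, namely *Ctsa*, *Ctsb*, *Ctsc*, *Ctsd*, *Ctsh*, *Ctsk*, *Ctsl*, *Ctss*, *Ctsz*, and *Lgmn*. They were measured by RNA-Seq in 9 libraries of CD45+CD11b+ cells sorted from quadriceps of *mdx* mice, which lack dystrophin and serve as a model of Duchenne muscular dystrophy. CD45 is found on leukocytes, and CD11b on myeloid cells, mainly macrophages, monocytes, and neutrophils. Mice of both sexes were 4.5 weeks old at collection and had received vehicle, the mineralocorticoid receptor antagonist spironolactone (250 mg/L in the drinking water), or the glucocorticoid prednisolone (6.7 mg/L) for 7 days. There are 3 libraries in a group, each made from the pooled cells of 3 mice, so that a replicate is a pool. All groups were *mdx*, live and dead cells were not separated in the sort, and untreated wild-type cells were not analysed here. Libraries held 31469815 to 32943512 counts on genes, and every member had enough counts to pass the low-count filter that 16618 genes passed.

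Cathepsins are made as inactive precursors, carried to endosomes and lysosomes by mannose 6-phosphate receptors, and activated there at acid pH. Most are cysteine proteases, whereas cathepsin D is an aspartic protease and cathepsin A a serine carboxypeptidase. Legumain cuts after asparagine and trims several cathepsins to their mature forms. In macrophages these enzymes digest engulfed debris and prepare antigens for class II presentation, and some are also released and cut extracellular matrix. Transcription of many lysosomal genes is controlled by the MiT/TFE factors, among them TFEB, which bind an E-box with the letters CACGTG.

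The stretches before the start sites of *Ctsk* and *Ctsd*, whose levels differed between the drugs, are shown first, to set a promoter without an E-box beside one that holds it. RefSeq promoters on GRCm38.p6 were at hand for 8 of the 10 members, all except *Ctsb* and *Ctsh*, in 10 windows of 250 bases before a start site. The promoter of *Ctsk*, the member that changed most, lies at chr3:95498960-95499209 on the plus strand, and that of *Ctsd* at chr7:142387828-142388077 on the minus strand. Both are written 5′ to 3′ in the direction of the gene, with every E-box in capitals.
*Ctsk*: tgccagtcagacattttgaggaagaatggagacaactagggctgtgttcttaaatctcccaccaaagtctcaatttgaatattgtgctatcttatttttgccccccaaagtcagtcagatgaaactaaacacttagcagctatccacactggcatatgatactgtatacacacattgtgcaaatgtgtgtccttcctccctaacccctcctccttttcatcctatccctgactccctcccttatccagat
*Ctsd*: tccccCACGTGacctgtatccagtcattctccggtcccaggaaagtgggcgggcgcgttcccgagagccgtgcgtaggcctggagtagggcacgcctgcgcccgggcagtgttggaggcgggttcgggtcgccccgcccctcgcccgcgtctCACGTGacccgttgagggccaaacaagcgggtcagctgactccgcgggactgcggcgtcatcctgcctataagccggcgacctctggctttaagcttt
The *Ctsd* window holds 2 E-boxes, which begin 245 and 98 bases before the start site, and 67.2% of its bases are G or C. The *Ctsk* window holds none and has 43.2% G or C.

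An E-box was also found before the second start site of *Ctsa* and of *Lgmn* and before *Ctsl*, and these short stretches are given to show the bases on each side of it.
*Ctsa*, chr2:164833750-164833772, plus strand: gagcaaactgtCACGTGatgcag
*Lgmn*, chr12:102439125-102439152, minus strand: ggaatgtctgtCACGTGgtccattttat
*Ctsl*, chr13:64370740-64370767, minus strand: gcgttagaagcCACGTGctgatctaaat
CACGTG, searched on both strands, was in 4 of the 10 member windows and in 6.02% of the 32851 windows of the table. The longer core TCACGTGA, which contains the E-box, was in 2 member windows, those of *Ctsa* and *Ctsd*, and in 0.785% of all windows. A full glucocorticoid response element, AGAACA and TGTTC with any 3 bases between them, was in none of the member windows and in 0.0304% of all windows. The AP-1 site TGACTCA was likewise in none of them and in 4.46% of all. GAGGAAGT, a form of the site of the myeloid factor PU.1, was in 1 member window, before *Ctsc*, and in 2.44% of all. A match gives the letters only, and binding was not measured.

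On GRCm39, with GENCODE gene limits, *Ctsk* lies at chr3:95406178-95416732 and *Ctss* downstream of it on the same strand at chr3:95433963-95463717, 17230 bases apart with 1 gene between them. *Ctsk*, *Ctsc*, and *Ctsh* share exon bases with no other annotated gene. The strand setting of the counting is not stated, so reads from exon bases that a member shares with a gene on the opposite strand cannot be told from reads of that gene. These members are *Ctsa*, which shares 1252 exon bases with *Pltp* and 649 with *Neurl2*, *Ctsb*, which shares 1184 with *Fdft1*, *Ctsz*, which shares 1084 with *Nelfcd*, and *Ctsl*, which shares 1742 with a long noncoding RNA. *Lgmn* overlaps another such RNA without shared exon bases. *Ctsd* shares 808 exon bases with *Gm49369*, a gene model on its own strand that was not analysed here, and *Ctsl* shares 395 with a pseudogene on its strand. *Fdft1* had at most 906 counts and *Nelfcd* at most 916 in any library, and *Pltp* had at most 13197, against at least 46053 for *Ctsa* and 366356 for *Ctsb*.

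To place the members among all transcripts of these cells, levels were compared per length, as TPM, the share of transcripts after division by length, over the summed exons of each gene. In vehicle libraries *Ctsd*, the aspartic endoprotease, had a level of 11427 ± 1320 TPM (SD, n = 3) and rank 5 of all genes matched to a length. *Ctsb*, a cysteine protease that also removes dipeptides from the ends of proteins, had 7611 ± 1410 TPM and rank 8. *Ctss*, which cleaves the invariant chain of class II molecules, had 2859 ± 251 TPM and rank 34. These 3 did not overlap between vehicle libraries, with 10511 to 12940 TPM for *Ctsd*, 6734 to 9237 for *Ctsb*, and 2587 to 3081 for *Ctss*.

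A middle group followed in vehicle, with *Ctsa* at 1356, *Ctsz* at 1297, and *Lgmn* at 1231 TPM, whose ranges overlapped. *Ctsl*, an endoprotease, had 891 TPM, *Ctsc*, which activates the serine proteases of granules, had 639, and *Ctsh*, an aminopeptidase, had 579, with overlapping ranges for the last 2. *Ctsk*, the collagen-degrading cathepsin best known from osteoclasts, was the lowest member at 70.3 ± 18.5 TPM and rank 2186. In prednisolone libraries its level was 208 ± 40.1 TPM and its rank 730, still below every other member. With the length of the canonical transcript in place of all exons, *Ctsd*, *Ctsb*, and *Ctss* stayed the top 3 (8511, 7001, and 6355 TPM in vehicle) and *Ctsk* the last (62.6 TPM), whereas *Lgmn* moved to the fourth place (1802 TPM) and *Ctsl* to the ninth (576 TPM). The order within the middle group therefore rests on the choice of transcript.

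**Figure D1:**
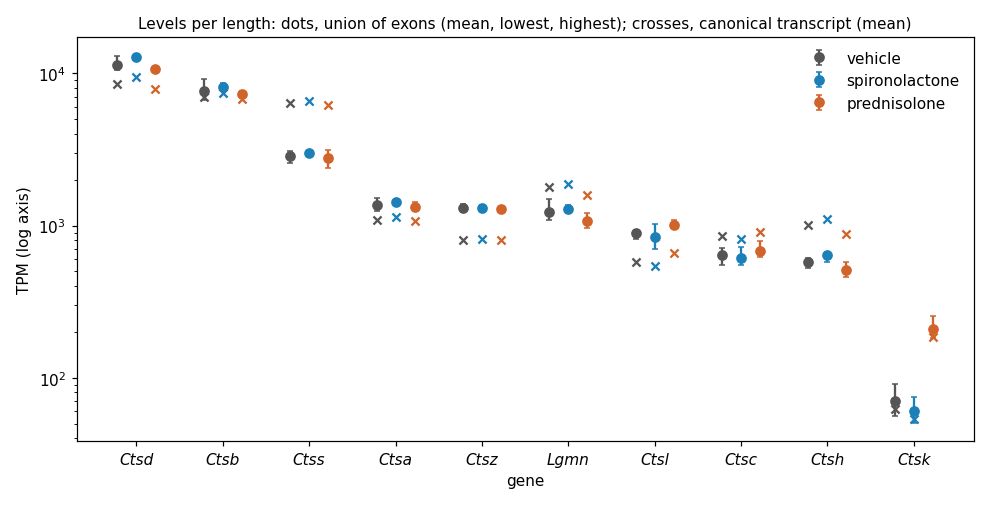
Level of each member in TPM on a log axis, by gene and group. Dots are group means over summed exons with the lowest and highest of 3 libraries, and crosses are means with the canonical transcript length. *Ctsd* is highest in every group by either length, and *Ctsk* is lowest, with 208 TPM in prednisolone and 70.3 TPM in vehicle libraries over summed exons.

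Together the 10 genes took 3.17% ± 0.19 of all normalized counts in vehicle libraries, and *Ctsb* and *Ctsd* were the largest parts of it. The share was 3.05% to 3.39% in vehicle, 3.39% to 3.40% in spironolactone, and 2.72% to 3.05% in prednisolone libraries. On this scale the spironolactone libraries were nearly alike and lay at the level of the highest vehicle library. The highest prednisolone library was about level with the lowest vehicle library. These counts were scaled by TMM factors of 0.980 to 1.03, so that the order of libraries this close can depend on the scaling. Per length the means were 2.80% of TPM in vehicle, 3.00% in spironolactone, and 2.69% in prednisolone. The ranges were 2.62% to 3.13% in vehicle, 2.94% to 3.12% in spironolactone, and 2.6% to 2.84% in prednisolone. Per length the spironolactone libraries were thus less alike, and either drug overlapped with vehicle, whereas the drugs did not overlap with each other. In these bulk samples fewer cells of one type and less RNA per cell cannot be told apart.

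From here on levels are CPM, the share of all counts after TMM normalization, which compare 1 gene between libraries and not genes with each other. Tests were 2-sided and used edgeR's quasi-likelihood fit over all 9 libraries, with Benjamini-Hochberg adjustment over the 16618 genes and a threshold of 0.05. The p-values measure the spread between pools and not between single animals. The vehicle libraries served as the reference for either drug.

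The first comparison asked what the glucocorticoid did in the sorted cells. *Ctsk* rose with prednisolone. Its level was 39.8, 38.6, and 63.0 CPM in vehicle and 118, 157, and 117 CPM in prednisolone libraries. All prednisolone libraries lay above all vehicle libraries, and vehicle replicate 3 was the highest of its group. The log2 fold change was 1.47 ± 0.21 (SE), a 2.77-fold higher level, with an adjusted p of 0.00816 in edgeR. The 95% interval of the log2 fold change ran from 1.01 to 1.93.

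*Ctsk* was the 1 member of 10 to pass the threshold in this comparison, against 1.76% of all genes tested, or 1.0% counted in the higher direction. At an unadjusted p under 0.05 there were 3 members, *Ctsk*, *Ctsh*, and *Lgmn*, against 14.2% of all genes. *Ctsk* kept an adjusted p under 0.05 in each of the 9 fits without 1 library, with 0.00063 to 0.0308, and in 7 of 8 alternative fits. The exception was a fit with the replicate number as a block (adjusted p = 0.0507), where the log2 fold change was 1.49. Its fold change was largest without vehicle replicate 3 (1.74 on the log2 scale) and smallest without prednisolone replicate 2.

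*Ctsh* was at 636, 712, and 620.2 CPM in vehicle and 503, 509.6, and 609 CPM in prednisolone libraries. The groups did not overlap, with prednisolone replicate 3 close to the lowest vehicle library. Its log2 fold change was -0.28 ± 0.11, with an unadjusted p of 0.027 and an adjusted p of 0.269 in edgeR, so that it did not pass. *Lgmn* had 2658, 2132, and 2104 CPM in vehicle and 1921, 1682, and 2118 CPM in prednisolone libraries. Prednisolone replicate 3 lay within the vehicle range, and the log2 fold change of -0.27 ± 0.12 had an adjusted p of 0.306 in edgeR.

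*Ctsd* had 7657, 6748, and 7021 CPM in vehicle and 6302, 5977, and 6513 CPM in prednisolone libraries, without overlap. The log2 fold change was -0.19 ± 0.10 with an adjusted p of 0.403 in edgeR. *Ctsz*, a carboxypeptidase, had 1093, 1099.8, and 1073 CPM in vehicle, the narrowest spread of all members (SD 1.31% of the mean), and 1068, 948, and 1045 CPM with prednisolone. These too did not overlap, by a gap smaller than the spread of the prednisolone libraries, and the adjusted p was 0.709.

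In all, 4 members lay outside the vehicle range in every prednisolone library, against 19.7% of all genes tested, 3 of them below it, against 9.27%, and 1 above it, against 10.4%. With library totals in place of TMM factors, *Ctsd*, *Ctsh*, and *Ctsz* overlapped with vehicle, and only *Ctsk* stayed outside. The TMM factors ran from 0.980 to 1.03. Over the 10 members the median log2 fold change was -0.12, against -0.01 over all genes.

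The remaining members gave no call. *Ctsb* had 15159.9, 12221, and 12107 CPM in vehicle and 12351, 11198, and 12546 CPM in prednisolone libraries, where vehicle replicate 1 stood above every other library of the study. *Ctss* had 2935, 3792, and 3617 CPM in vehicle and 2750.3, 3150.5, and 3548 CPM with prednisolone. *Ctsa* and *Ctss* had log2 fold changes of -0.11 and -0.13, *Ctsb* of -0.13, and *Ctsl* of 0.10, with adjusted p of 0.661 to 0.771 in edgeR. *Ctsc* had 909 CPM in both groups and a log2 fold change near 0. Its 95% interval ran from -0.31 to 0.31, so that changes of that size in either direction are compatible with these libraries.

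**Figure D2:**
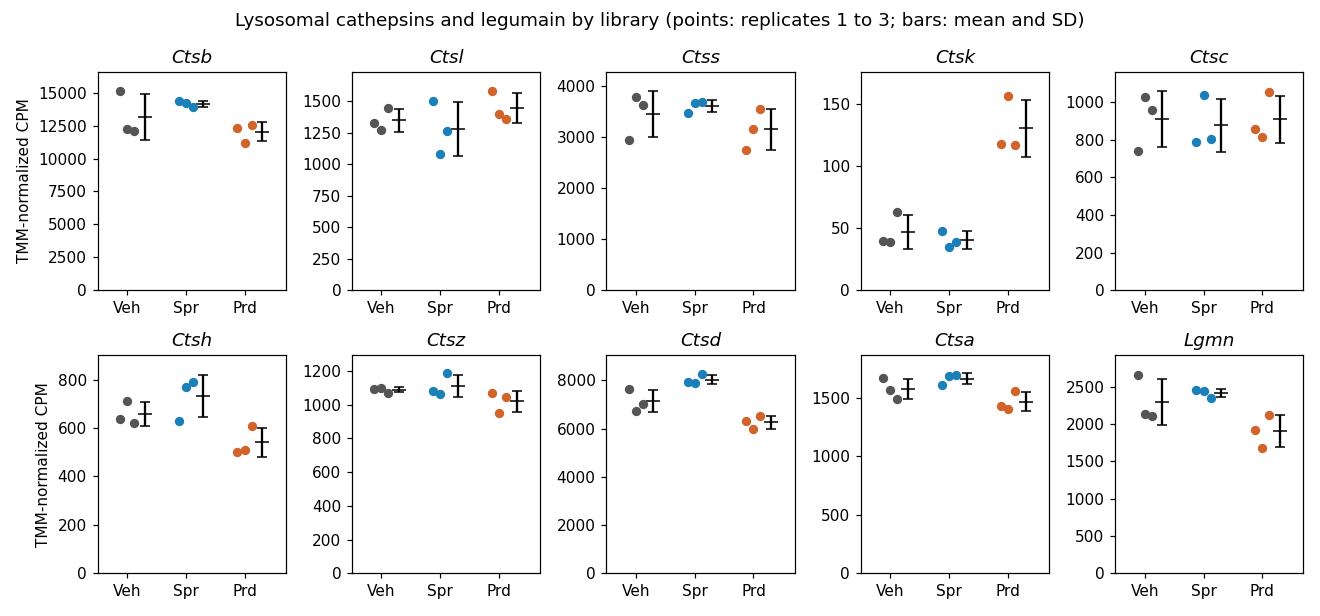
TMM-normalized CPM of each member by library, with points for replicates 1 to 3 of vehicle (Veh), spironolactone (Spr), and prednisolone (Prd), and the mean with SD beside them. All axes start at 0. *Ctsk* is at 117 to 157 CPM in prednisolone and at 34.5 to 63.0 CPM in the other libraries, while the other 9 members vary by 1.2-fold to 1.58-fold over all libraries.

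The second comparison asked what the mineralocorticoid receptor antagonist did. With spironolactone 0 of 10 members passed the threshold, against 0.0181% of all genes, which is 3 genes. DESeq2 and limma-voom also called 0 members, where they called 266 and 0 of all genes. In edgeR 0 members had an unadjusted p under 0.05, against 9.29% of all genes. The largest log2 fold change upward was that of *Ctsd*, 0.17 ± 0.10, with an adjusted p of 0.639 in edgeR. *Ctsd* had 7945, 7886, and 8260.4 CPM with spironolactone, and each of these libraries lay above the highest vehicle library, at 7657 CPM. It was the only member outside the vehicle range, against 13.5% of all genes, of which 6.99% lay above and 6.5% below it, and with library totals it overlapped with vehicle.

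*Ctsk* had 48.1, 34.5, and 39.0 CPM with spironolactone, within or below the vehicle range, and a log2 fold change of -0.22 ± 0.20. Its 95% interval from -0.67 to 0.24 contains neither the rise of 1.47 seen with prednisolone nor a change of that size downward. *Ctsb* had 14383, 14202, and 13895 CPM, between vehicle replicate 1 and the other vehicle libraries. *Lgmn* showed the same arrangement, with 2458, 2443, and 2355 CPM. Across the members, log2 fold changes were -0.22 to 0.17, the median was 0.07 against 9.04e-05 over all genes, 7 members had a positive value, and the widest 95% interval was that of *Ctsk*.

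The third comparison set the drugs directly against each other and so tests the difference between their effects. Here 3 of 10 members passed, against 5.17% of all genes tested, with 2 members higher with spironolactone, against 2.38%, and 1 lower, against 2.79%. *Ctsk* was lower with spironolactone than with prednisolone by a log2 fold change of -1.69 ± 0.21 (adjusted p = 0.00281 in edgeR). *Ctsh* was higher with spironolactone, at 630.5, 771, and 789 CPM against 503, 509.6, and 609 CPM, without overlap. Its log2 fold change was 0.43 ± 0.11, a 1.35-fold higher level, with an adjusted p of 0.0422. *Ctsd* was higher by 0.36 ± 0.10 on the log2 scale, 1.28-fold, with an adjusted p of 0.0469, and its libraries in the 2 groups did not overlap either.

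The calls of *Ctsh* and *Ctsd* sit close to the threshold. *Ctsh* passed in 7 of 8 alternative fits and was lost with library totals (adjusted p = 0.0537), over a range of 0.0053 to 0.0537. It was also lost without vehicle replicate 3 (0.0504), spironolactone replicate 2 (0.132) or 3 (0.165), and prednisolone replicate 1 (0.164) or 2 (0.161). *Ctsd* passed in 6 of 8 alternative fits and was lost with RLE size factors (0.0502) and with library totals (0.0617), over a range of 0.00202 to 0.0617. Of the 9 fits without 1 library only that without vehicle replicate 1 kept it (0.0175), and the others gave 0.0649 and 0.0709 without vehicle replicate 2 and 3, 0.0659, 0.109, and 0.17 without spironolactone replicate 1, 2, and 3, and 0.123, 0.164, and 0.095 without prednisolone replicate 1, 2, and 3. *Ctsk* passed in all 8 alternative fits (largest adjusted p 0.0198) and in all 9 without 1 library (largest 0.0262).

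*Lgmn* was higher with spironolactone by 0.34 ± 0.12 on the log2 scale, with an unadjusted p of 0.0107 and an adjusted p of 0.1 in edgeR. Its spironolactone libraries all lay above its prednisolone libraries, the highest of which had 2118 CPM. It passed with DESeq2 (0.0493) and without vehicle replicate 1 (0.0314), and its adjusted p over the alternatives ran from 0.0493 to 0.144. *Ctsa* had 1614, 1691, and 1694 CPM with spironolactone and 1431, 1408, and 1558 CPM with prednisolone, and *Ctsb* was also separated, with adjusted p of 0.248 and 0.233.

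In this comparison 6 members did not overlap between the groups, against 30.3% of all genes. Of these 5, *Ctsa*, *Ctsb*, *Ctsd*, *Ctsh*, and *Lgmn*, had every spironolactone library above every prednisolone library, against 15.1% of all genes, and *Ctsk* alone was below, against 15.2%. The same members were separated with library totals and with RLE size factors. At an unadjusted p under 0.05 there were 4 members, against 22.5% of all genes. The median log2 fold change of the members was 0.19, against 0.03 over all genes. *Ctsl* and *Ctsc* had negative values of -0.18 and -0.05, with adjusted p of 0.417 and 0.883 in edgeR. The mean levels of 7 members, *Ctsa*, *Ctsb*, *Ctsd*, *Ctsh*, *Ctss*, *Ctsz*, and *Lgmn*, were in the order spironolactone, vehicle, prednisolone, and those of *Ctsk* and *Ctsl* in the reverse order.

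**Figure D3:**
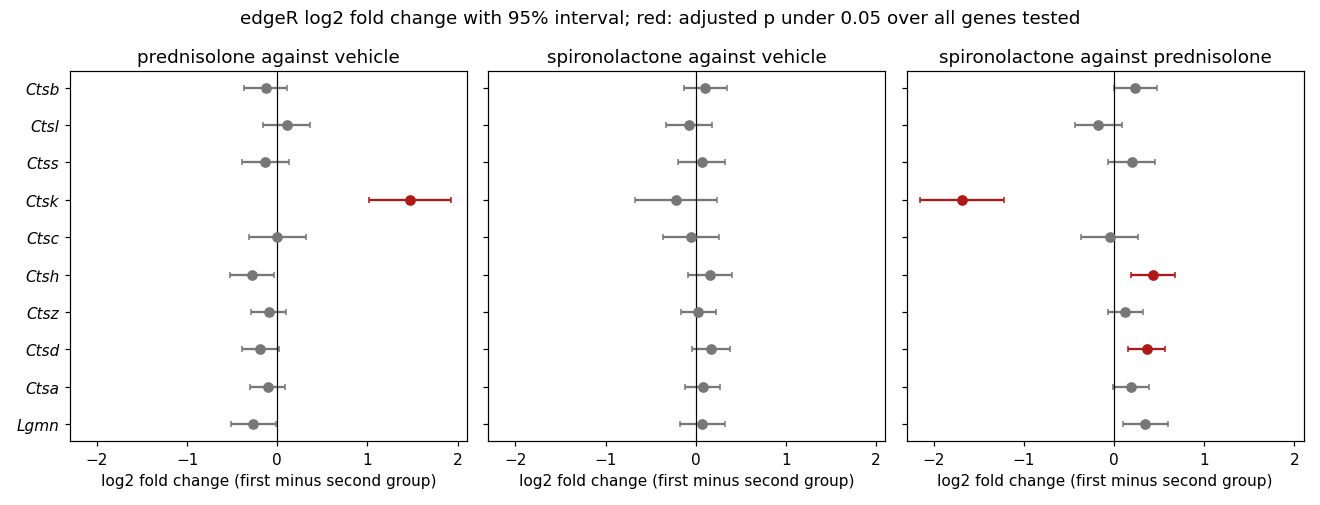
Log2 fold change of each member with its 95% interval from edgeR in the 3 comparisons, with positive values for a higher level in the first group named. Red points have an adjusted p under 0.05 over all genes tested, which are *Ctsk* with prednisolone (1.47) and *Ctsk* (-1.69), *Ctsh* (0.43), and *Ctsd* (0.36) for spironolactone against prednisolone.

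Members also varied within groups. In vehicle libraries the SD was 29.2% of the mean for *Ctsk*, the most variable member, 16.4% for *Ctsc*, 13.6% for *Lgmn*, 13.1% for *Ctsb*, and 1.31% for *Ctsz*. Vehicle replicate 1 had the highest vehicle level of *Ctsa*, *Ctsb*, *Ctsd*, and *Lgmn* and the lowest of *Ctsc* and *Ctss*. *Ctsc* had 741 CPM in that library and 1028 and 958 CPM in the other vehicle libraries. The summed level of 6 monocyte markers, *Ly6c2*, *Ccr2*, *Plac8*, *Chil3*, *Hp*, and *Vcan*, was 1096 CPM in vehicle replicate 1 and 2571 and 2390.4 CPM in the others. It was 1494 to 1761 CPM in spironolactone and 2045 to 2758 CPM in prednisolone libraries, without overlap between the drugs. Of the 6 genes *Chil3* (-1.40) and *Vcan* (-1.20) had negative log2 fold changes for spironolactone against prednisolone, and the other 4 had positive ones, among them *Ly6c2* (0.72) and *Plac8* (0.88). Its part in the levels of the members was not tested.

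Markers of the sorted cells were abundant. The summed level of 8 macrophage markers, among them *Adgre1*, *Csf1r*, *Cd68*, and the *C1q* genes, was 8627 to 10098 CPM in vehicle, 9770 to 10844 CPM in spironolactone, and 8031 to 8954 CPM in prednisolone libraries. Like *Ctsd*, *Ctsh*, and *Lgmn*, this sum did not overlap between the drugs, and *C1qb* and *C1qc* of the list were higher with spironolactone than with prednisolone (adjusted p = 0.0154 and 0.0408 in edgeR). Of the 8 genes 5 had a positive log2 fold change between the drugs, *C1qa* (0.48), *C1qb* (0.62), *C1qc* (0.51), *Fcgr1* (0.47), and *Cd68* (0.26), *Adgre1*, *Csf1r*, and *Mertk* had values of -0.04, -0.04, and -0.03, and the median was 0.36. Its part in the differences of the members was not tested. The sum of 10 neutrophil markers was 738, 981, and 4792 CPM in vehicle and 1354, 1529, and 3592 CPM in spironolactone libraries. Replicate 3 thus stood apart in both groups. Vehicle replicate 3 also had the highest vehicle level of *Ctsk*, whereas spironolactone replicate 3 had 39.0 CPM of *Ctsk*, below the 48.1 CPM of spironolactone replicate 1. In prednisolone libraries the sum was 763 to 974 CPM. It overlapped between vehicle and either drug and, like the macrophage sum, did not overlap between the drugs. With prednisolone 2 of the 10 markers had a positive log2 fold change against vehicle, the median was -1.62, and 0 were called. The part of neutrophils in the levels of the members was not tested.

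*Ctsk* is also known from fibroblasts, and 10 fibro-adipogenic markers, among them *Pdgfra*, *Dcn*, and *Col1a1*, summed to 1104 to 1402 CPM in vehicle, 1307 to 1769 CPM in spironolactone, and 1355 to 1403 CPM in prednisolone libraries. The sum in prednisolone libraries lay within or next to the vehicle range, and the 2 highest sums were in spironolactone libraries. *Gsn* and the collagen genes carried most of the sum. *Pdgfra*, a defining but low marker, had 3.07, 4.59, and 3.71 CPM in vehicle and 5.68, 4.83, and 6.21 CPM in prednisolone libraries, without overlap (log2 fold change 0.56 ± 0.28, adjusted p = 0.393 in edgeR), and 8 of the 10 markers had a positive value, with a median of 0.08. The sum of 8 dendritic cell markers was higher in every prednisolone library (596 to 757 CPM) than in every vehicle library (401 to 423 CPM), as *Ctsk* was. In spironolactone libraries, where *Ctsk* had its lowest mean, the dendritic sum was 356, 534, and 549 CPM, so that 2 of the 3 also lay above all vehicle libraries. Of that list *Itgax*, which encodes CD11c, rose (log2 fold change 0.80 ± 0.15, adjusted p = 0.0197 in edgeR), and it also carried most of the sum. It was the 1 gene of 8 called with prednisolone, where 1.0% of all genes were called higher. Of the 8 genes 6 had a positive value, with a median of 0.36. *Clec9a* (-0.22) and *Ccr7* (-0.04) had negative ones, and *Xcr1* was at 0.04. Fibro-adipogenic cells are not leukocytes, and the sort should leave them out. The part of fibro-adipogenic or dendritic cells in the rise of *Ctsk* was not tested.

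The summed levels of endothelial, skeletal muscle, and erythroid markers, of cells that the sort should leave out, lay above vehicle in every spironolactone library. For 9 endothelial genes the sum was 276 to 390.2 CPM with spironolactone, 183 to 235 CPM in vehicle, and 165 to 216 CPM in prednisolone libraries. For 9 skeletal muscle genes it was 411 to 691, 216 to 333, and 331 to 514 CPM in the same order of groups, and for 6 erythroid genes 186 to 305, 70.2 to 135, and 37.1 to 79.7 CPM. With prednisolone 7 of 8 skeletal muscle genes tested also had a positive log2 fold change against vehicle, with a median of 0.52. Of these *Myh1* was called (1.07 ± 0.22, adjusted p = 0.0239 in edgeR), where 1.0% of all genes were called higher. The sum of 7 lymphocyte genes was low but likewise separated, at 6.87 to 11.9, 2.90 to 5.39, and 1.37 to 2.76 CPM. Between the drugs, genes called higher with spironolactone were 4 of 9 endothelial, 4 of 5 erythroid, and 3 of 7 lymphocyte genes tested. For skeletal muscle it was 0 of 8, against 2.38% of all genes tested. The part of such RNA in the levels of the members was not tested.

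**Figure D4:**
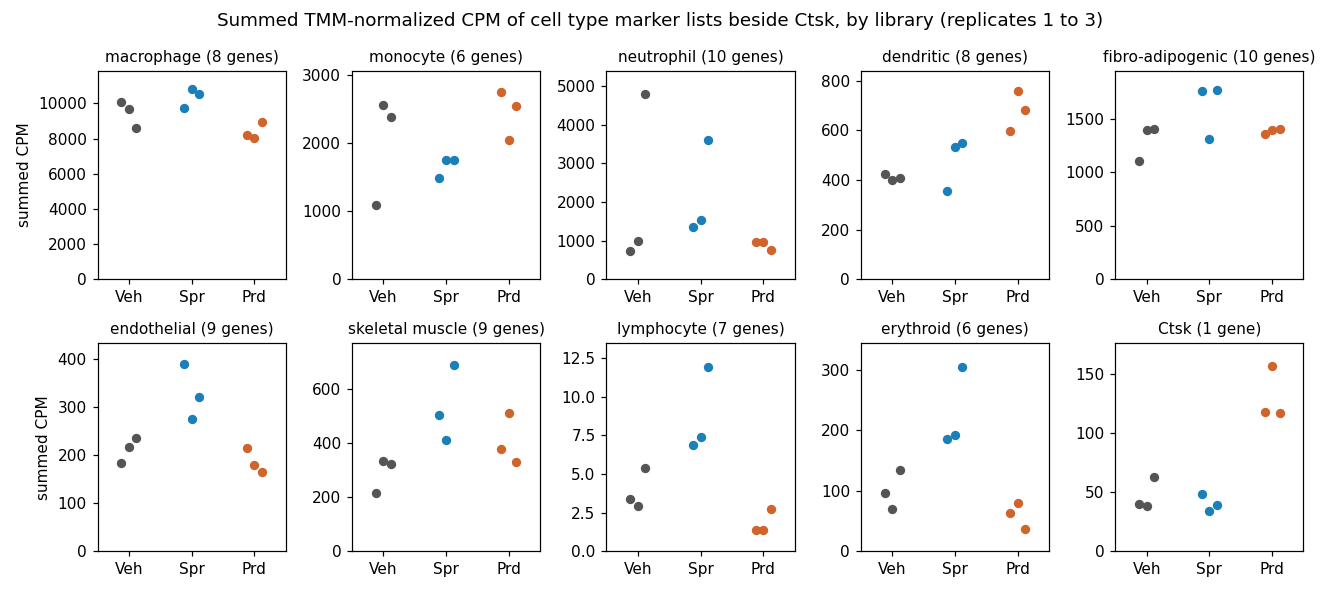
Summed TMM-normalized CPM of 9 cell type marker lists and the CPM of *Ctsk* in each library, with points for replicates 1 to 3 of vehicle (Veh), spironolactone (Spr), and prednisolone (Prd) and axes from 0. The dendritic sum and *Ctsk* are higher in every prednisolone than in every vehicle library, whereas the fibro-adipogenic sum is 1355 to 1403 CPM with prednisolone and up to 1402 CPM with vehicle.

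The genes with the profile most like that of *Ctsk* were found by the mean absolute difference of log2 CPM, centred on the mean of each gene, over the 9 libraries. They were *Cspg4*, which encodes the NG2 proteoglycan (0.173), *Slc4a11*, a membrane transporter (0.207), and *Sel1l3* (0.237), where the median gene had 0.749. *Cspg4* had 22.8 ± 5.12 CPM in vehicle, 18.8 ± 2.40 CPM in spironolactone, and 67.4 ± 8.65 CPM in prednisolone libraries. *Slc4a11* was a low gene, at 2.72 CPM in vehicle and 6.45 CPM in prednisolone libraries, and *Sel1l3* went from 16.6 to 33.4 CPM. For *Ctsd* the nearest genes were *Ftl1*, the ferritin light chain (0.0443), *Gnas*, a G protein subunit (0.0451), and *Fbxw17* (0.0487), with 0.244 for the median gene. *Ftl1* had 9659 CPM in vehicle, 10543 CPM in spironolactone, and 8343 CPM in prednisolone libraries. These genes were chosen for their likeness, so that their agreement with the members is no test.

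The members were then set beside 111 other lysosomal genes that were tested, in 7 lists by role. With prednisolone 2 of the 111, or 1.80%, passed the threshold, near the 1.76% of all genes. *Gusb*, the beta-glucuronidase that degrades glycosaminoglycans, had 588, 499.7, and 515 CPM in vehicle and 694, 774, and 743 CPM in prednisolone libraries, and rose (log2 fold change 0.46 ± 0.10, adjusted p = 0.0264 in edgeR). *Igf2r*, the large mannose 6-phosphate receptor that carries cathepsins to the lysosome, had 243, 175, and 218 CPM in vehicle and 350.0, 314, and 307 CPM in prednisolone libraries. It rose by 0.61 ± 0.14 (adjusted p = 0.0393). Both were separated from vehicle in every library. The number of calls was 0 without vehicle replicate 2 or 3 or prednisolone replicate 2 or 3, 1 without spironolactone replicate 2 or prednisolone replicate 1, 4 without spironolactone replicate 1, and 11 without vehicle replicate 1.

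In the other lists the genes with the smallest p did not pass. *Tfeb*, the regulator of lysosomal genes, had a log2 fold change of -0.34 ± 0.08 (adjusted p = 0.0536 in edgeR), and *Atp6v0d2*, a proton pump subunit, one of 0.44 ± 0.11 (adjusted p = 0.0621). The others were *Ctsf*, a cathepsin outside the 10 (0.76 ± 0.22, adjusted p = 0.113), *Cstb*, the cathepsin inhibitor cystatin B (-0.25 ± 0.12, adjusted p = 0.356), and *Cln3*, a lysosomal membrane protein (-0.28 ± 0.08, adjusted p = 0.107).

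With spironolactone 0 of the 111 genes passed in edgeR, and 5 had an unadjusted p under 0.05, where all genes gave 9.29%. DESeq2 and limma-voom called 0 of the 111, where they called 266 and 0 of all genes. The smallest p of a list belonged to *Dpp7*, a dipeptidyl peptidase (0.17 ± 0.09), *Serpinb6a*, a protease inhibitor (0.29 ± 0.12), *Hgsnat*, an enzyme of heparan sulfate breakdown (-0.24 ± 0.10), *Ostm1*, a partner of a lysosomal chloride transporter (-0.17 ± 0.08), *Atp6ap2*, an accessory protein of the proton pump (-0.15 ± 0.08), *Gnptab*, an enzyme of cathepsin sorting (-0.25 ± 0.12), and *Tfec*, a relative of *Tfeb* (0.29 ± 0.13), with adjusted p of 0.475 to 0.588 in edgeR.

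Between the drugs 11 of the 111 passed, or 9.91%, against 5.17% of all genes, with 3 higher and 8 lower with spironolactone. The 2 with the smallest p were both genes of enzyme sorting. *Igf2r* was lower with spironolactone by -0.80 ± 0.14 on the log2 scale (adjusted p = 0.00696 in edgeR), and *Gnptab*, which helps make the mannose 6-phosphate mark, by -0.64 ± 0.12 (adjusted p = 0.00841). Among the hydrolases *Pla2g15*, a lysosomal phospholipase, was higher (0.50 ± 0.10, adjusted p = 0.0105), as was *Dnase2a*, which degrades DNA. *Hgsnat* (-0.50 ± 0.10, adjusted p = 0.0112), *Ids* (-0.51 ± 0.11, adjusted p = 0.017), *Gusb*, *Arsb*, and *Acp5* were lower. *Tfeb* was higher by 0.40 ± 0.08 (adjusted p = 0.0167), and *Atp6v0d2* was lower by -0.45 ± 0.11 (adjusted p = 0.0338).

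The other MiT/TFE genes did not pass, with -0.22 ± 0.08 for *Tfe3*, -0.06 ± 0.13 for *Mitf*, and 0.31 ± 0.13 for *Tfec*. The smallest p among the other peptidases was that of *Ctsw*, a cathepsin of cytotoxic lymphocytes (1.54 ± 0.49, adjusted p = 0.0835), and among the inhibitors that of *Stfa3*, a stefin of neutrophils (2.63 ± 1.07, adjusted p = 0.165), both low genes with means of 2.63 and 0.643 CPM in spironolactone libraries. Among the membrane proteins it was that of *Cln3* (0.22 ± 0.08, adjusted p = 0.131). The number of lysosomal calls was 18 without vehicle replicate 1, 5 without spironolactone replicate 2 or 3, 7 without prednisolone replicate 1, and 3 without prednisolone replicate 2 or 3. The median log2 fold change of the 111 genes was 0.01, beside 0.03 for all genes, and 59 of them had a positive value.

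**Figure D5:**
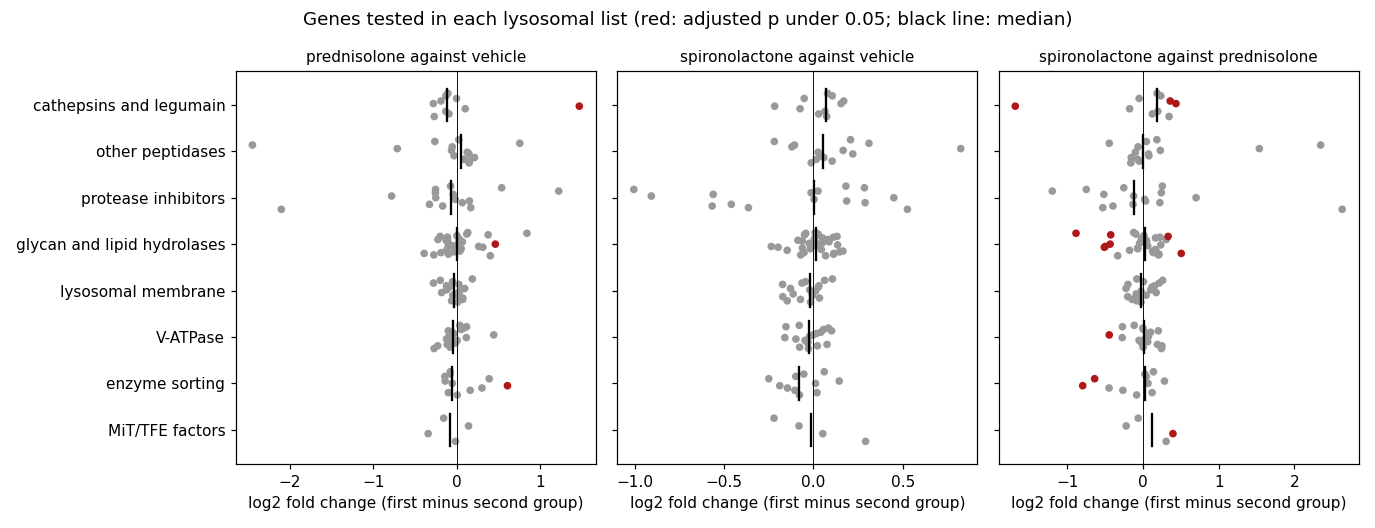
Log2 fold change of each tested gene in the cathepsins and legumain and in 7 other lysosomal lists, for the 3 comparisons, with a black line at the median of a list and red points for an adjusted p under 0.05. Horizontal scales differ between panels. *Ctsk* is the red point at 1.47 in the prednisolone panel, and no point is red for spironolactone against vehicle.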

How the data were processed

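RNA-Seq of 9 libraries, 3 per group, was analysed. The deposited count files hold whole-number counts per gene, which the authors made by alignment to mm39 with HISAT2 2.2.1 and counting with HTSeq 0.11.3 (versions from the submitters' processing notes). The annotation release and strand setting are not given in the sources used here. Lines that name no gene held 17.2% to 21.8% of the counts and were left out. Tables of the authors' own DESeq2 1.32.0 comparisons, with fold changes and p-values, were not used. No sequencing batch is given in the sources used here.

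Calculations used R 4.3.3, edgeR 4.0.16 (glmQLFit with robust=TRUE, TMM, filterByExpr with the groups, minimum count 10, all 9 libraries in one fit), limma 3.58.1, and DESeq2 1.42.0. Scripts were tested on simulated counts for prednisolone against vehicle, with the spread of these data. There edgeR called 99 of 200 changed genes, 70 of the 100 changed 2-fold, and 4 unchanged genes. The direction was wrong for 6 changed genes. A gene that was not called can thus still have changed. Alternatives were DESeq2, limma-voom, edgeR on 2 groups, RLE, library totals, no filter, at least 10 counts in every library, a replicate block, and fits without each library. Leaving out 1 library leaves a group of 2. Libraries of one group differed by a chi-square of 19.7 to 63.8 per degree of freedom, far above sampling noise, and counting error is small at the levels of the members.

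For TPM, symbols were matched to GENCODE for their exon lengths (40303 of 50559, at least 91.0% of the counts). The TPM of other lengths and the separation of groups with other scalings were chosen after seeing the data. Promoters are from RefSeq. Named genes are the 10 members, in the lysosomal lists the genes past the threshold (up to 6 per comparison, by adjusted p) and the gene with the smallest p of each list, and the 3 genes with the profile most like the member with the smallest p in a comparison. *Acp5*, *Gusb*, *Arsb*, *Dnase2a*, *Tfe3*, *Mitf*, and *Tfec* between the drugs and the single marker genes were named after their values were seen. A further marker of the monocyte list is not reported here. The members and lists were chosen with earlier results of these data known.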

Additional observations from a re-analysis of the deposited data

How the results depend on the processing

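Over the 8 alternative fits, 228 of 240 log2 fold changes of members kept their direction and side of the threshold, and 239 of 270 did so in the fits without 1 library. The main fits used no pairing by replicate number. Same-numbered libraries of different groups correlated in their deviations by -0.038 to 0.151, and the other pairs by -0.168 to 0.044. The highest values were those of vehicle and spironolactone replicate 3 (0.151) and replicate 1 (0.117). These values do not settle whether the numbers mark a pairing. With the replicate block *Ctsk* gave a log2 fold change of 1.49 and an adjusted p of 0.0507 for prednisolone against vehicle. Thus 0 members were called, and the block called 5 other lysosomal genes with prednisolone and 8 of all genes with spironolactone. For *Ctsk* the other 7 alternatives gave an adjusted p of at most 0.0205. The smallest, 1.7e-36, came from edgeR with no filter, where calls over all genes rose from 293 to 1019. The log2 fold change there was 1.49, so that the p moved with the fit and not with the size of the change. Members called between the drugs were 1 with library totals and 1 to 4 without 1 library, and with prednisolone 1 to 1. Counted over prednisolone (4 members) and spironolactone (1 member, *Ctsd*, which is also among the 4), there were 5 separations of a member from vehicle, and 1 with library totals, that of *Ctsk*.

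*Ctsc* for prednisolone against vehicle (-0.00026) turned positive with DESeq2 (0.0030), limma-voom (0.0044), 2 groups (0.00012), RLE (0.0022), library totals (0.029), no filter (0.017), and the replicate block (0.013), and ran from -0.127 to 0.0979 without 1 library. Between the drugs *Ctsc* ran from -0.192 to 0.0653. For spironolactone against vehicle, fits without 1 library gave -0.192 to 0.0455 for *Ctsc*, -0.358 to 0.0446 (without vehicle replicate 3) for *Ctsk*, -0.204 to 0.0338 (without spironolactone replicate 2) for *Ctsl*, -0.0403 (without vehicle replicate 1) to 0.138 for *Ctss*, and -0.0217 (without spironolactone replicate 3) to 0.0596 for *Ctsz*. None of these members was called in the comparison named.

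All genes called with prednisolone were 293, and 684 with DESeq2, 1019 with no filter, and 69 (without prednisolone replicate 2) to 826 (without vehicle replicate 1) without 1 library. With spironolactone they were 3, and 266, 528, and 0 to 34, with 0 for limma-voom. Between the drugs they were 859, and 1595, 1940, and 232 to 1898 by the same libraries, with 1598 on 2 groups. Other lysosomal genes called were 2 with prednisolone, and 11 with DESeq2, 1 on 2 groups, 9 with no filter, and 0 to 11 without 1 library, and 11 between the drugs, and 17, 17 on 2 groups, and 3 to 18 without 1 library. The cause was not tested. The share of the members per length in vehicle libraries was 2.80%, 2.81% with canonical lengths, and 2.63% to 2.88% without 1 vehicle library. The member with the fewest counts, *Ctsk*, had at least 1091 in a library.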
